A study of Mus musculus with 8 samples.

Results

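The type I interferon-stimulated genes are a set of antiviral and signalling genes that cells switch on after type I interferon binds its receptor. A list of 43 such genes, given by symbol, was looked up in the count matrices, and 41 of them were found among 32227 genes. Mx1 and Mx2 were not analysed here. The 41 genes were followed as raw unique molecular identifier (UMI) counts over all cell classes of the mouse brain immune preparations and over all 8 libraries.

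The libraries came from C57Bl/6J male mice labelled as 5 to 6 months old, with 1 mouse per library. The mice received saline or lipopolysaccharide (LPS, a bacterial endotoxin) by intraperitoneal injection at 15000000 EU/kg and were sampled 24 h later. Brains of decapitated mice were dissociated with enzymes either with vehicle (DMSO) or with a mix of transcription and translation inhibitors (actinomycin D, triptolide and anisomycin), and CD45+ cells were magnetically enriched before PIPseq, a droplet single-cell RNA assay based on templated emulsification. Crossing both treatments gave 4 combinations with 2 libraries each. The animals carried no transgene by the labels, and the brains were not perfused, so leukocytes in brain vessels are part of the sample. Where values are listed per library below, saline libraries come as DMSO replicates 1 and 2 and then inhibitor replicates 1 and 2, and LPS libraries follow in the same order.

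The libraries held 12039 to 17364 cells after filtering, with 2207 to 3161 median UMIs per cell in saline libraries and 4149 to 4763 in LPS libraries. The median depth therefore moved with the treatment, and shares of cells are given after thinning every cell to 800 UMIs. Barcodes with 1 to 99 UMIs (free RNA) took 15.5 to 33.7% of the counts, and any pair of libraries shared at most 25 cell barcodes. Cells were assigned to classes by marker genes. Microglia were the largest class with 92367 cells, and the microglial markers within them stood at 42951 to 45072 CPM (counts per 1000000 UMIs of the class) in saline libraries and at 7698 to 8811 CPM in LPS libraries, with all 13 markers still detected. More cells reached no class after LPS, at 3.07 to 5.70% of cells in saline and 8.70 to 11.9% in LPS libraries. Microglia close to the limit of assignment numbered 80 to 112 per saline library and 509 to 865 per LPS library. The summed level of the listed genes in cells without a class overlapped between the groups, with means of 2975.5 and 3631 CPM. What the unassigned cells would change in the results was not tested. Immediate-early genes in microglia, which the inhibitors are meant to hold down, summed to 3661 to 8174 CPM in DMSO libraries and to 346 to 735 CPM in inhibitor libraries, so these genes separated the ex vivo groups as labelled.

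Type I interferons signal through the receptor chains Ifnar1 and Ifnar2 and the kinases Jak1 and Tyk2, which phosphorylate STAT proteins. Stat2 and Irf9 are subunits of the complex ISGF3, which binds an interferon-stimulated response element in the promoters of its target genes. The targets include proteins that tag other proteins, bind or cut viral RNA, sense nucleic acids in the cytosol, or block viral entry and release. Microglia with high levels of such genes are a known state in infection, ageing and injury.

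The promoters of many of these genes share a sequence core. RefSeq promoter windows (GRCm38.p6, 250 bases before to 50 after the start) were matched for 33 of the 41 genes. The core GAAANNGAAA, searched on both strands with overlapping matches counted, was in 20 of these 33 windows (60.6%) and in 1079 of 27025 windows of all genes (3.99%). It was in 15 of 25 windows of genes called higher in LPS microglia, in 2 of 2 called lower and in 3 of 6 not called, as defined below. The 200 bases before the start are printed 5′ to 3′ on the strand of the gene for 6 genes whose LPS values are described below: Isg15, the IFIT gene Ifit1, the close relatives Ifit3 and Ifit3b, and the p200 genes Ifi211 and Ifi203, which moved in opposite directions in microglia. Capitals mark the core on either strand. Isg15 is at chr4:156200819-156201018 (minus strand), Ifit1 at chr19:34640689-34640888, Ifit3 at chr19:34583329-34583528 and Ifit3b at chr19:34607757-34607956 (plus strand), and Ifi211 at chr1:173913047-173913246 and Ifi203 at chr1:173942493-173942692 (minus strand).
Isg15: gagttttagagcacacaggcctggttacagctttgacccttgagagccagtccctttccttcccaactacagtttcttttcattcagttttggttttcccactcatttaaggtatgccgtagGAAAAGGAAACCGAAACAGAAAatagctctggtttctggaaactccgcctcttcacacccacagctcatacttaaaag
Ifit1: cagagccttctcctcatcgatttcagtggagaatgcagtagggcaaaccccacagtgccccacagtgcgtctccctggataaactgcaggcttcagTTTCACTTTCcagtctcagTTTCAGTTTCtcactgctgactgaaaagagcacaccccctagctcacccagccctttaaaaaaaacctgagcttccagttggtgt
Ifit3: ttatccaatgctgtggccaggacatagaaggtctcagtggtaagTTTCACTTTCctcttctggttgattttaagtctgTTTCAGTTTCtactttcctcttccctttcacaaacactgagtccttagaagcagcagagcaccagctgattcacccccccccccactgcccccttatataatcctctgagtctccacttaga
Ifit3b: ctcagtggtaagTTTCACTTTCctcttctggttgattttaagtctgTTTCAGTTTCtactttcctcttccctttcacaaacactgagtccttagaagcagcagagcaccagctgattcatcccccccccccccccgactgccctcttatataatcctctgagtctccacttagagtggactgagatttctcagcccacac
Ifi211: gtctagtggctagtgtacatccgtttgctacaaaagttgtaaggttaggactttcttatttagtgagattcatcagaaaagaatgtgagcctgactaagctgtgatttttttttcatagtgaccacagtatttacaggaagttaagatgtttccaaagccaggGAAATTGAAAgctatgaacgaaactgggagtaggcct
Ifi203: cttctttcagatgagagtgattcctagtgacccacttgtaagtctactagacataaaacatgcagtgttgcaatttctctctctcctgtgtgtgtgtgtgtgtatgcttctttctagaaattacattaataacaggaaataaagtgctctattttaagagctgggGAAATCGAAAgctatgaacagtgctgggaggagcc
Ifi211 and Ifi203 each hold the core close to their start. Reads of Ifit3 and Ifit3b, of the p200 genes and of the OAS, Schlafen and Phf11 genes can be shared between near-identical copies, and how such reads were counted is not given in the sources used here, so the split between such neighbours is uncertain.

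After LPS, microglia carried more of most type I interferon-stimulated genes. Of the 41 genes, all tested in microglia, 32 were higher and 2 were lower at an adjusted p under 0.05 (edgeR's quasi-likelihood test on UMIs summed per library, adjusted for DMSO or inhibitors). Of all 20507 genes tested in microglia, 29.9% were called higher and 34.9% lower. The median log2 fold change of the 41 genes was 1.72, against −0.19 for all genes. LPS changed much of the microglial RNA, and the reference level mattered: without scaling factors (library size alone) the median of all genes was −0.97, and the calls became 25 higher and 9 lower. The share of all genes called with library size alone is not given here or below, so such counts have no background. CPM values below carry no scaling factor, so a gene with equal CPM in both groups has a positive scaled fold change in microglia. Fewer cells of a kind and less RNA per cell cannot be told apart in such sums.

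The summed level of the 41 genes in microglia was 858, 922, 1017 and 993 CPM in the saline libraries and 2747, 1987, 2322 and 2281 CPM in the LPS libraries. Every LPS library was above every saline library, with means of 947 ± 71.9 and 2334 ± 313 CPM (SD, n = 4 each). Free RNA rose alongside, from 1210.2 ± 165 to 2870.1 ± 439.8 CPM. Free RNA made up at most 1.75 to 8.71% of microglial UMIs by the markers of other classes. With the counts expected from it subtracted, 32 genes were again called higher. The share of all genes called after this subtraction is not given here or below, so such counts have no background. Of 16 marker lists of other classes, that of monocytes was higher in every LPS than in every saline library of microglia (74.3 to 106 CPM in saline, 184 to 275 CPM in LPS libraries), 12 were lower and 3 overlapped, and its part in these results was not tested.

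**Figure D1:**
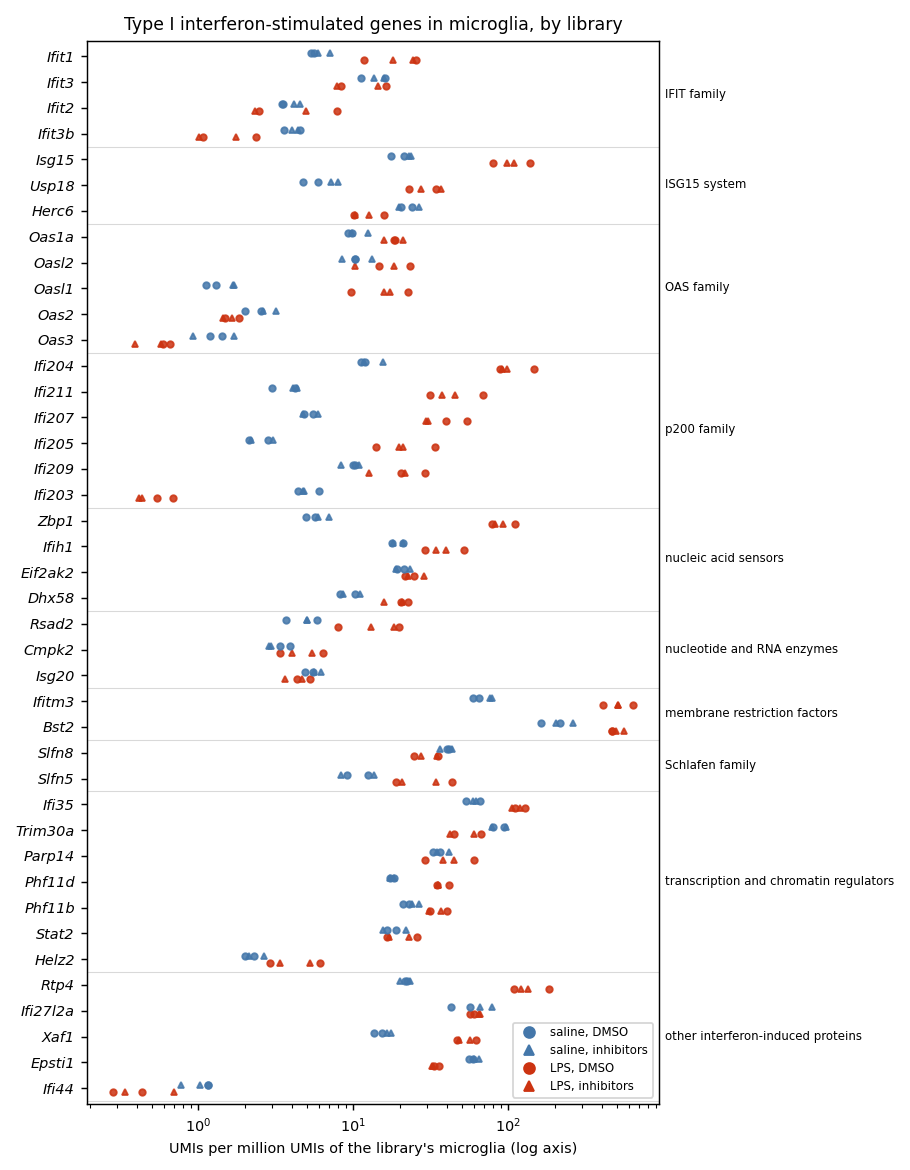
Level of each of the 41 genes in microglia in every library, in CPM on a log axis, with saline libraries in blue, LPS libraries in red, DMSO libraries as circles and inhibitor libraries as triangles. Zbp1, Ifi204, Ifitm3 and Isg15 have all LPS points above all saline points, and Ifi203 has all LPS points below them.

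Within the ISG15 system, 2 of 3 genes rose. Isg15, a ubiquitin-like protein that is attached to other proteins and also secreted, stood at 17.3, 21.2, 23.4 and 22.9 CPM in saline microglia and at 138, 79.7, 97.6 and 108 CPM in LPS microglia. All LPS libraries exceeded all saline libraries, and the log2 fold change was 3.10 ± 0.19 (SE, adjusted p = 4.45e-08). Usp18, which removes Isg15 from proteins and restrains the interferon receptor, rose by a log2 fold change of 3.02 ± 0.16, from 4.75, 5.92, 7.95 and 7.15 CPM to 34.3, 22.9, 36.9 and 27.2 CPM. Herc6, the mouse ligase for Isg15, did not pass the test (−0.11 ± 0.13, adjusted p = 0.463). Its CPM was lower in every LPS library than in every saline library, at 23.9, 20.1, 26.6 and 19.8 and 15.8, 10.1, 12.7 and 10.2, which is within the general fall of microglial CPM given above.

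The IFIT genes, whose products bind foreign RNA, did not move together. Ifit1 rose from 5.29, 5.54, 7.05 and 5.89 CPM to 25.2, 11.8, 24.1 and 17.9 CPM, a log2 fold change of 2.50 ± 0.20 (adjusted p = 3.20e-07) with no overlap between the groups. Ifit3 was the most abundant of the family in saline microglia and stood at 11.2, 16, 15.7 and 13.7 CPM there and 16.3, 8.32, 14.4 and 7.88 CPM after LPS. Its groups overlapped, and its log2 fold change of 0.48 ± 0.22 did not pass the test (adjusted p = 0.0668). Ifit2 was called higher (0.91 ± 0.32), although its CPM of 3.52, 3.46, 4.53 and 4.11 in saline and 7.81, 2.46, 4.94 and 2.32 in LPS libraries overlapped. Ifit3b was called lower (−0.65 ± 0.25, adjusted p = 0.0367), with 3.57, 4.50, 4.36 and 4.0 CPM in saline and 2.37, 1.07, 1.75 and 1.01 CPM in LPS libraries. Both calls were lost when single libraries were left out. The adjusted p of Ifit2 was 0.12 without LPS DMSO replicate 1, 0.0759 without LPS inhibitor replicate 1, 0.0634 without saline DMSO replicate 1. That of Ifit3b was 0.139 without LPS inhibitor replicate 2, 0.137 without saline DMSO replicate 2, 0.11 without LPS DMSO replicate 2, 0.108 without saline inhibitor replicate 2, 0.0897 without saline inhibitor replicate 1, 0.0591 without LPS inhibitor replicate 1.

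The p200 genes, which encode DNA-binding proteins with roles in sensing cytosolic and nuclear DNA, held 5 rises and 1 fall. They lie side by side on mouse chromosome 1, from Ifi209 (start 173630859, GRCm38.p6) to Ifi205 (end 174031755). Ifi204 stood at 11.3, 11.8, 15.6 and 11.7 CPM in saline microglia and at 145, 87.8, 97.4 and 91.1 CPM in LPS microglia (3.84 ± 0.18). Ifi211 rose from 4.22, 3.0, 4.10 and 4.29 to 68.2, 31.2, 37.1 and 45.3 CPM, a log2 fold change of 4.32 ± 0.25. Both genes were higher in every LPS library than in any saline library. Ifi207 rose by 3.61 ± 0.16, Ifi205 by 3.89 ± 0.24 and Ifi209 by 1.82 ± 0.16. Ifi203, which lies between Ifi211 and Ifi205, went the other way, from 5.99, 4.38, 4.70 and 4.81 CPM to 0.681, 0.543, 0.432 and 0.415 CPM. Its log2 fold change was −2.49 ± 0.19 (adjusted p = 2.75e-07), and no LPS library reached the level of a saline library.

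All 4 nucleic acid sensors were called higher, and 3 of 4 with library size as the only scaling. Zbp1, which binds Z-form nucleic acids and can start necroptosis, had the largest log2 fold change of the 41 genes in microglia (4.74 ± 0.17, adjusted p = 8.06e-10). It stood at 4.97, 5.61, 6.93 and 5.89 CPM in saline libraries and at 110.3, 78.8, 82.4 and 92.5 CPM in LPS libraries. Ifih1 (MDA5) and Dhx58 (LGP2), which recognise double-stranded RNA, rose by 1.77 ± 0.15 and 1.82 ± 0.13. Eif2ak2, the kinase PKR that halts translation on double-stranded RNA, was called higher by 1.01 ± 0.10. Its CPM of 19.1, 21.1, 23 and 18.9 in saline and 24.7, 21.5, 28.6 and 22.6 in LPS libraries overlapped between the groups.

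Of the 5 OAS genes, which make or relate to the oligoadenylates that activate RNase L, 3 rose. Oasl1, a family member without that enzyme activity, rose from 1.29, 1.12, 1.69 and 1.67 to 22.5, 9.67, 17.1 and 15.8 CPM (4.28 ± 0.25). Oas1a rose by 1.60 ± 0.11 and Oasl2 by 1.40 ± 0.19, while Oas2 and Oas3 did not pass the test (0.08 ± 0.18 and −0.50 ± 0.23). The level of Oas2 and Oas3 stayed at or below 3.19 CPM in every library.

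The membrane restriction factors Ifitm3 and Bst2 were the most abundant genes of the list in LPS microglia, while in saline microglia the mean of Trim30a (86.9 CPM) lay between theirs. Ifitm3, which blocks fusion of virus with endosomes, stood at 59.5, 64.8, 78.1 and 75.7 CPM in saline microglia and at 635, 406, 513 and 512 CPM in LPS microglia (3.67 ± 0.18, adjusted p = 6.70e-09). Bst2 (tetherin), which holds budding virus at the cell surface, rose from 163, 214, 204 and 260.0 to 467, 464, 496 and 559.5 CPM (2.01 ± 0.18). Without these genes, the summed CPM of the list was still higher after LPS, at a mean of 667 CPM in saline and 1321 CPM in LPS microglia.

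The enzymes of nucleotide and RNA metabolism were all called higher, with unequal firmness. Rsad2 (viperin), which makes a chain-terminating nucleotide, rose from 5.83, 3.65, 5.0 and 5.0 to 19.7, 7.98, 18.3 and 13 CPM (2.37 ± 0.23). Cmpk2, a mitochondrial nucleotide kinase, was called higher by 1.33 ± 0.20, with 3.92, 3.38, 2.86 and 2.92 CPM in saline and 6.35, 3.37, 5.41 and 4.01 CPM in LPS libraries, which overlapped. The exonuclease Isg20 was called higher by 0.45 ± 0.16, but with library size as the only scaling its log2 change was −0.32. Among the Schlafen genes, which restrict viral replication, Slfn5 rose by 2.19 ± 0.23. Slfn8 had 0.36 ± 0.12 with scaling factors and −0.41 with library size alone. The adjusted p of Isg20 was 0.0867 without LPS DMSO replicate 1, 0.0775 without saline DMSO replicate 1, 0.057 without saline inhibitor replicate 1, and that of Slfn8 was 0.0705 without LPS DMSO replicate 1.

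Of 7 transcription and chromatin regulators, 6 were called higher, and with library size alone 4 were higher and 1 lower. The changes were led by Phf11d (1.81 ± 0.11), Ifi35 (1.72 ± 0.13) and the helicase Helz2 (1.72 ± 0.22). Stat2, a subunit of ISGF3, was called higher by 0.94 ± 0.14 with overlapping CPM of 18.7, 16.6, 21.9 and 15.6 in saline and 25.8, 16.4, 22.8 and 16.9 in LPS libraries. Trim30a, a ubiquitin ligase that restrains Toll-like receptor signalling, did not pass the test (0.05 ± 0.13). Among the other genes, Rtp4 rose from 22.2, 21.6, 23.1 and 20.1 to 182, 108, 119.9 and 133 CPM (3.42 ± 0.17), and the apoptosis-related Xaf1 rose by 2.54 ± 0.16. Epsti1 and Ifi44 did not pass the test (−0.07 ± 0.10 and −0.47 ± 0.27). With library size alone, higher and lower calls numbered 1 and 1 of 4 among the IFIT genes, 2 and 1 of 3 in the ISG15 system, 3 and 2 of 5 among the OAS genes, 2 and 0 of 3 among the enzymes and 2 and 2 of 5 among the other genes, and stayed at 5 and 1 of 6 for the p200 genes. These counts too have no share of all genes beside them.

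Outside microglia, the 41 genes were tested in 11 further classes, and 178 of 265 tested pairs of gene and class (microglia included) were called. Over all genes, 18.8% of 82270 tested pairs were called higher and 20.4% lower. The filter on low counts kept between 4 genes (pericytes and smooth muscle cells) and 39 genes (monocytes) per class. A gene can pass this filter through the group in which it is high, so the counts describe those that passed and not the list. Isg15 was called higher in 11 of 11 classes tested, Ifitm3 in 11 of 12, Rtp4 in 10 of 10, Xaf1 in 9 of 10 and Bst2 in 8 of 12. Zbp1 and Ifit1 were each called higher in 8 of 9 classes. Ifi203 was lower in 5 of the 7 classes in which it was tested and higher in none, Epsti1 was lower in 3 of 7, and Cmpk2 was higher in 2 and lower in 3 of 6.

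**Figure D2:**
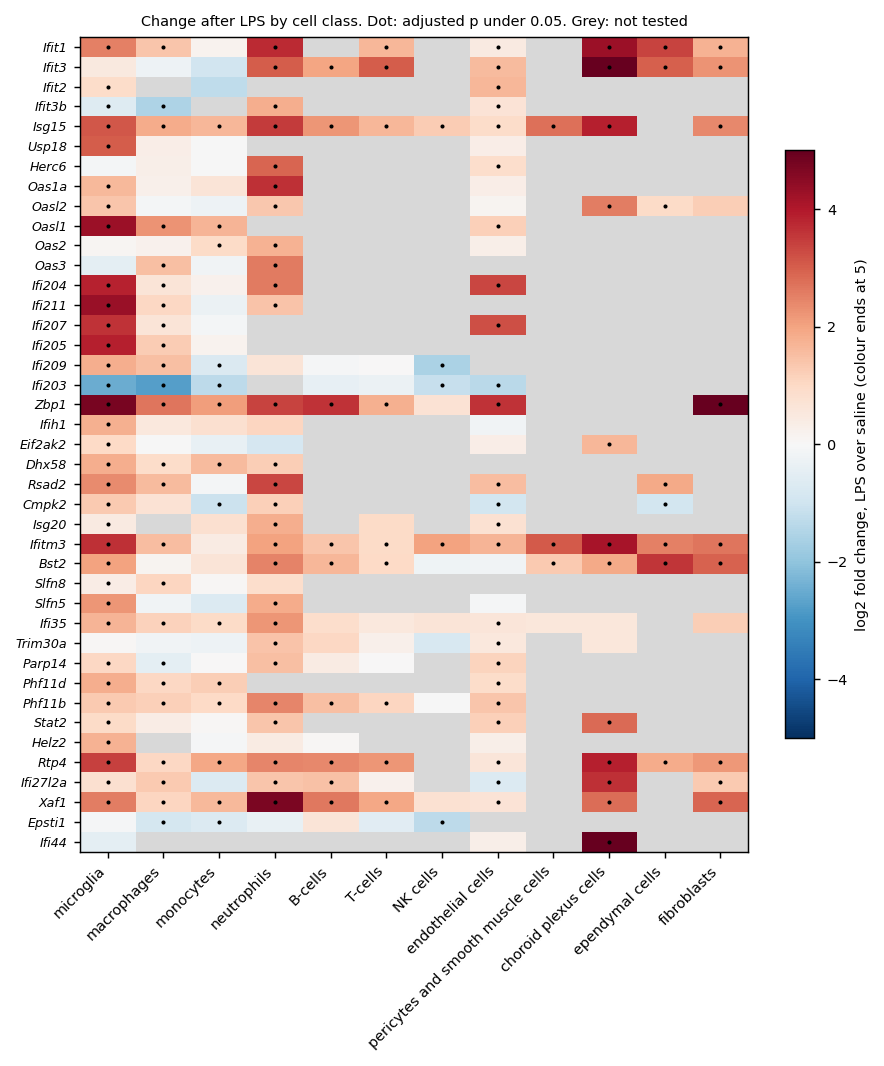
Log2 fold change of each gene (rows) in each cell class (columns), LPS against saline, with dots on pairs called at an adjusted p under 0.05 and grey where the gene was not tested. Isg15 is called in every tested class, and the row of Ifi203 is negative in all 7 tested classes, with 5 of them called.

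In neutrophils the rise was broad. Of 33 genes tested, 27 were higher and 0 were lower, with 12.2% of all tested genes higher and 11.8% lower. With a library left out in turn, 7 of these calls were lost at least once. They were those of Cmpk2, Ifi211, Ifit3b, Oasl2, Parp14, Phf11b and Stat2. The median log2 fold change of the tested genes was 1.83, against −0.0030 for all genes. Isg15 stood at 21.9, 22.8, 34.8 and 42.8 CPM in saline neutrophils and at 253, 367, 298 and 293 CPM in LPS neutrophils (3.48 ± 0.31). Rsad2 rose from 32.9, 16.6, 92.9 and 47.1 to 591, 142, 423 and 288 CPM (3.32 ± 0.43), and its saline inhibitor libraries were above its saline DMSO libraries. The free RNA limit in neutrophils was also higher there, at 19 and 8.59% of UMIs in the saline inhibitor and 4.92 and 4.94% in the saline DMSO libraries. The summed level of the listed genes in the saline inhibitor libraries was 1432 and 1130 CPM in free RNA and 2427 and 1623 CPM in neutrophils. These libraries held 46 and 101 neutrophils. After thinning, 3 and 4 of them had an IFIT UMI, with 11 and 5.25 UMIs of the other genes on average. The part of free RNA and of these few cells in the order within saline was not tested. With free RNA subtracted, 23 genes were called higher. Ifit1 had the same order within saline as Rsad2, with 3.65, 2.08, 58.1 and 25.7 CPM, and reached 185, 122, 238 and 148 CPM after LPS (3.71 ± 0.46). Zbp1 rose from 21.9, 29.1, 0 and 38.5 to 277, 216, 342 and 261 CPM. Xaf1 had 2 UMIs in all saline neutrophils and 167 in LPS neutrophils, a ratio of 30.3 per total UMIs (95% exact counting interval 8.26 to 252). Of 16 marker lists of other classes, 1 was higher and 8 were lower without overlap. Monocyte marker RNA in the neutrophil class was higher after LPS (3646 to 6479 CPM in saline, 9358 to 11376 CPM in LPS libraries) and microglial marker RNA was lower (2516 to 4529 CPM in saline, 1371 to 1739 CPM in LPS libraries), and its part in these results was not tested.

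In macrophages, which included perivascular and border-associated cells by their markers Mrc1, Cd163 and Lyve1, 20 of 37 tested genes were higher and 4 were lower (background 24.6% higher and 26.1% lower). The share of genes called higher was thus above that of all genes and the share called lower was below it. Marker levels in this class moved with LPS. The 10 macrophage markers summed to between 17307 and 19307 CPM in saline and between 4688 and 5427 CPM in LPS libraries. The 13 microglial markers stood between 5757 and 6381 CPM in saline and between 788 and 1176 CPM in LPS libraries, and the 10 monocyte markers between 65.2 and 102 CPM and between 660 and 1432 CPM. Of 16 lists of other classes, 2 were higher without overlap (monocytes and neutrophils) and 8 lower. The part of these markers in the results was not tested, and with free RNA subtracted 20 genes were again called higher. With library size alone, 18 were higher and 7 lower. Saline macrophages already had a summed level of 3778 ± 172 CPM, and LPS macrophages had 5356 ± 223 CPM (SD, n = 4). Ifitm3 stood at 836, 833, 753 and 820.2 CPM in saline and 1842, 1780.2, 1631 and 2078 CPM in LPS macrophages (1.56 ± 0.15). Zbp1 rose from 27.5, 28.6, 26.6 and 47.4 to 187, 155, 116 and 186 CPM (2.67 ± 0.23), and Isg15 rose by 1.87 ± 0.20. Ifi203 fell from 120.5, 112, 129 and 120.2 to 15.7, 13.1, 18.4 and 7.57 CPM, a log2 fold change of −2.74 ± 0.19 (adjusted p = 3.28e-09). Epsti1 (−0.89 ± 0.15), Ifit3b (−1.52 ± 0.38) and Parp14 (−0.50 ± 0.18) were also called lower. The call of Parp14 was lost when single libraries were left out. Its adjusted p was 0.171 without saline DMSO replicate 1, 0.0915 without LPS inhibitor replicate 1 and 0.0882 without LPS DMSO replicate 2. It was 0.059 without LPS DMSO replicate 1 and 0.0528 without saline inhibitor replicate 2.

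Monocytes already had a high and uneven level in saline mice. Their summed level was 4267, 2945, 8526 and 5490.5 CPM in saline libraries and 6091, 5362, 6070.0 and 5826 CPM in LPS libraries, and the groups overlapped, with the inhibitor library of saline replicate 1 the highest of all. Saline monocytes were few (536 cells, against 4410 after LPS). Of 39 genes tested, 10 were higher (background 12.5% of all genes) and 4 were lower (background 12.7%). Microglial marker RNA in this class stood at 1470 to 2630 CPM in saline and 587 to 727 CPM in LPS libraries and macrophage marker RNA at 1041 to 1253 and 386 to 569 CPM. Of 16 lists of other classes, 10 were lower without overlap and 1 (astrocytes) higher, and their part was not tested. Zbp1 rose from 23.3, 44.2, 132 and 92.3 to 302, 283, 277 and 269.6 CPM (2.10 ± 0.32), and Rtp4 from 62.2, 29.5, 121 and 69.3 to 286, 183, 241 and 242 CPM (1.93 ± 0.29). No LPS library of either gene overlapped a saline library. Ifi203 (−1.33 ± 0.22) and Cmpk2 (−1.09 ± 0.21) were lower in every LPS library. Ifi209 (−0.73 ± 0.23) and Epsti1 (−0.69 ± 0.22) were called lower with overlapping groups. The adjusted p of Ifi209 was 0.129 without saline inhibitor replicate 1, 0.0927 without LPS inhibitor replicate 2, 0.0913 without saline inhibitor replicate 2, 0.0639 without LPS inhibitor replicate 1, 0.0562 without LPS DMSO replicate 2, and that of Epsti1 was 0.156 without saline inhibitor replicate 1, 0.0907 without LPS inhibitor replicate 1, 0.0878 without saline inhibitor replicate 2, 0.081 without LPS inhibitor replicate 2, 0.0743 without saline DMSO replicate 1, 0.051 without LPS DMSO replicate 2.

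Endothelial cells passed the CD45 separation as a minor class of 1648 cells. Their summed level was 4382 ± 137 CPM in saline mice, above that of macrophages, and 8676 ± 567 CPM after LPS. Without Ifitm3 and Bst2 the saline means were 2147 CPM in endothelial cells and 2161 CPM in macrophages. Ifitm3 alone made up 61.2% of the full endothelial sum after LPS. Its share was 72.1% in pericytes and smooth muscle cells, 69.1% in ependymal cells and 64.2% in fibroblasts. Endothelial Ifitm3 stood at 1696, 2011, 1841 and 1979 CPM in saline and 4615, 5863, 4992 and 5763 CPM in LPS libraries (1.69 ± 0.22). Of 34 genes tested, 21 were higher and 3 lower (background 20.6% and 21.6%), and with library size alone 13 were higher and 3 lower. Marker RNA of other classes was lower in LPS endothelial cells without overlap for 7 of 16 lists and higher for 0, among them those of pericytes (2099 to 3388 CPM in saline, 232 to 1419.9 CPM in LPS libraries), monocytes (1714 to 2021 and 939.8 to 1254 CPM), microglia (3100 to 3482 and 1431 to 2620.2 CPM) and neurons (441 to 512 and 35.8 to 67.0 CPM), and its part in these results was not tested. With free RNA subtracted, 20 genes were called higher. All 4 IFIT genes were called higher. Ifit3 rose from 69.6, 73.7, 85.6 and 69 to 199, 161, 216 and 198 CPM (1.57 ± 0.15), unlike its overlapping values in microglia. The call of Ifit1 was lost when single libraries were left out. Its adjusted p was 0.157 without LPS inhibitor replicate 2, 0.125 without saline inhibitor replicate 2 and 0.0819 without LPS DMSO replicate 1. It was 0.0743 without saline DMSO replicate 2 and 0.0532 without saline inhibitor replicate 1. Zbp1 rose from 14.8, 18.6, 15.9 and 15.5 to 183, 188, 169 and 165 CPM (3.62 ± 0.17). Cmpk2 was lower (−0.91 ± 0.24), as were Ifi203 (−1.34 ± 0.44) and Ifi27l2a (−0.69 ± 0.23), all with overlapping groups. The adjusted p of Ifi203 was 0.0937 without LPS inhibitor replicate 2, 0.0618 without LPS inhibitor replicate 1, 0.059 without saline inhibitor replicate 1, and that of Ifi27l2a was 0.112 without LPS DMSO replicate 1, 0.104 without saline DMSO replicate 1, 0.0938 without LPS inhibitor replicate 2.

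Cells of the choroid plexus and the ependyma, which border the cerebrospinal fluid, started low and rose. Choroid plexus cells had the lowest summed level of the 12 tested classes in saline mice, 462 ± 43.1 CPM, and stood at 4119 ± 743 CPM after LPS. Of 14 genes tested, 12 were higher (background 11.2%, and 11.6% lower). Of 16 marker lists of other classes, 2 were higher after LPS without overlap and 0 lower, namely those of monocytes (329.6 to 459 CPM in saline, 727 to 1138 CPM in LPS libraries) and fibroblasts (56.6 to 153 and 155 to 232 CPM), and their part was not tested. Ifitm3 rose from 116, 135, 58 and 84.5 to 2133, 1836, 1890.4 and 2334 CPM (4.10 ± 0.23), and Ifi27l2a from 0, 18.3, 9.94 and 15.2 to 267, 179, 192 and 213 CPM (3.67 ± 0.30). Ifit3 had 3 UMIs in saline and 314 in LPS choroid plexus cells, a ratio of 80.2 per total UMIs (95% exact counting interval 27.2 to 391). Ifi44, which did not pass the test in microglia, had 1 UMI in saline and 85 in LPS choroid plexus cells, a ratio of 65.1 per total UMIs (95% exact counting interval 11.4 to 2601). By the markers of other classes, free RNA made up at most 3.03 to 23.5% of the UMIs of choroid plexus cells. With it subtracted, 11 genes were called higher.

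In ependymal cells, 7 of 8 tested genes were higher and 1 was lower (background 15.8% and 17.5%). Their 8 astrocyte markers went from between 1206 and 1575 CPM in saline to between 2902 and 4388 CPM in LPS libraries, and monocyte markers from between 134 and 184 to between 316 and 432 CPM. Of 16 lists of other classes 7 were lower without overlap, among them endothelial (815 to 943 CPM in saline, 412 to 525 CPM in LPS libraries) and pericyte markers (188 to 560.2 and 35.8 to 62.2 CPM). The part of these in the results was not tested. By the markers of other classes, free RNA made up at most 6.99 to 10.1% of their UMIs in saline libraries, 5.94 and 8.11% in LPS DMSO and 22.2 and 25.7% in LPS inhibitor libraries. With it subtracted, 7 genes were again called higher. Bst2 rose from 19.6, 31.1, 49.3 and 90.8 to 537, 335, 824 and 586 CPM (3.57 ± 0.25), and Ifit1 from 3.92, 4.91, 13.4 and 31 to 87.5, 75, 215 and 223 CPM (3.39 ± 0.31). Ifit3 rose by 2.99 ± 0.28, with no overlap. Cmpk2 was called lower (−0.92 ± 0.36), and this call was lost whichever library was left out, with an adjusted p of 0.207 without LPS inhibitor replicate 2, 0.156 without LPS DMSO replicate 2, 0.152 without saline inhibitor replicate 2, 0.11 without saline DMSO replicate 2, 0.0827 without LPS inhibitor replicate 1, 0.0715 without saline inhibitor replicate 1, 0.0604 without saline DMSO replicate 1, 0.0536 without LPS DMSO replicate 1.

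Lymphocytes also had several genes higher. In B-cells 9 of 16 tested genes were higher (background 5.04%), and in T-cells 9 of 17 (background 8.83%), with 0 lower in either class at this threshold (background 5.18% and 8.96%). Monocyte marker RNA was higher after LPS in B-cells (828 to 913 CPM in saline, 1432 to 1961 CPM in LPS libraries) and lower in T-cells (2117 to 2446 and 608 to 1104 CPM). Of 16 lists of other classes, 7 were lower without overlap in B-cells and 6 in T-cells, and their part was not tested. Zbp1 stood at 32.9, 20, 21.7 and 25.5 CPM in saline and 365, 229, 415 and 179 CPM in LPS B-cells (3.62 ± 0.30). In T-cells Ifit3 rose from 30.8, 4.79, 18.7 and 24.1 to 205, 92.1, 211 and 105 CPM (3.02 ± 0.36). These libraries did not overlap between the groups for either gene. NK cells differed in their mix of directions, with 2 of 11 tested genes higher and 3 lower (background 9.67% and 10.5%) and similar summed levels of 1231 ± 296 and 1347 ± 187 CPM. Their Ifitm3 rose from 58.8, 17, 12.5 and 51.1 to 88.6, 131, 206 and 121 CPM, and Isg15 was called higher by 1.27 ± 0.38. Epsti1 fell from 265, 225, 162 and 226 to 88.6, 114, 105 and 57.8 CPM (−1.31 ± 0.24). Ifi203 (−1.15 ± 0.34) and Ifi209 (−1.57 ± 0.44) were called lower in NK cells. Monocyte marker RNA in NK cells stood at 1806 to 2639 CPM in saline and 640.5 to 993 CPM in LPS libraries and microglial marker RNA at 2061 to 2882 and 1025 to 1815 CPM, with 5 of 16 lists lower without overlap and 0 higher, and their part was not tested. The adjusted p of Isg15 was 0.122 without saline DMSO replicate 2, 0.0695 without LPS DMSO replicate 1, 0.0542 without LPS inhibitor replicate 2. For Ifi203 it was 0.0783 without LPS inhibitor replicate 1, 0.0661 without saline inhibitor replicate 2, 0.0523 without saline inhibitor replicate 1, and for Ifi209 it was 0.0953 without LPS inhibitor replicate 2, 0.0683 without saline inhibitor replicate 1, 0.0574 without saline DMSO replicate 1.

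Mural and stromal cells had few tested genes. In pericytes and smooth muscle cells 3 of 4 were higher (background 12.9%, and 14.8% lower), and Ifitm3 rose from 634, 564, 835 and 738 to 6167, 5245, 4820.0 and 7272 CPM (3.08 ± 0.18). Fibroblasts had 3 saline libraries with enough cells, since saline DMSO replicate 1 held 9 fibroblasts and was dropped, and 9 of 11 tested genes were higher there (background 11.6%, and 9.76% lower). Macrophage marker RNA in fibroblasts was higher after LPS (50.1 to 119 CPM in saline, 136 to 473 CPM in LPS libraries), and 8 of 16 lists were lower without overlap, among them pericyte (906 to 1570 and 155 to 653 CPM) and endothelial markers (1096 to 1274 and 293 to 401 CPM). In pericytes and smooth muscle cells 4 of 16 were lower and 0 higher, and the part of these in the results was not tested. Bst2 stood at 83.4, 100.2 and 112 CPM in the 3 saline and at 517, 815, 439 and 938 CPM in the 4 LPS libraries (2.95 ± 0.40). Zbp1 had 0 UMIs in saline fibroblasts and 177 in LPS fibroblasts, which was at least 22.5-fold higher when 3 UMIs are taken as the limit for the saline group. In neutrophils, B-cells, T-cells, pericytes and smooth muscle cells, choroid plexus cells and fibroblasts edgeR called 0 genes lower and DESeq2 also called 0, and an unadjusted p under 0.05 with a negative change was found for 1 gene in neutrophils and 1 in T-cells. Dendritic cells had too few libraries for a test. Their Isg15 level was 92.6 and 16.4 CPM in 2 saline libraries and 1621, 2762, 876 and 2336 CPM in LPS libraries.

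**Figure D3:**
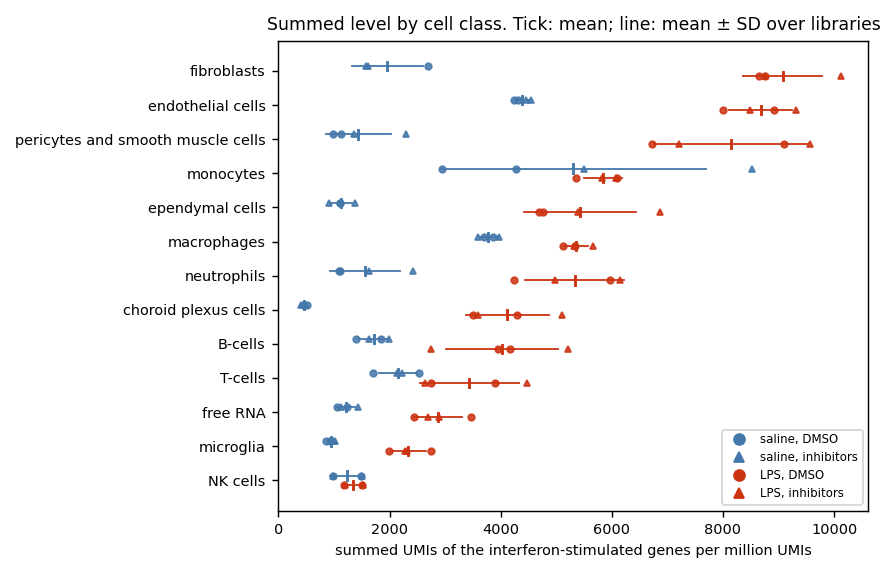
Summed CPM of the 41 genes per library in each cell class and in free RNA, with saline libraries in blue, LPS libraries in red, circles for DMSO, triangles for inhibitors, ticks at the group means and lines for the SD. Monocytes and NK cells overlap between the groups, and microglia, neutrophils, endothelial cells and choroid plexus cells do not.

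The LPS changes of several classes were then compared with that of microglia in a joint fit with the library as a block, over genes tested in both classes. The joint fit was run with scaling factors only, so how these differences depend on the scaling was not tested. Neutrophils had 13 genes with a larger log2 change than microglia and 4 with a smaller one among 33 (background 18% and 20.3%). Xaf1, among the 13, had 2 UMIs in saline neutrophils and passed the filter through the LPS libraries, so the count describes the genes that passed. Among the larger changes were Ifit3 (3.03 ± 0.48, log2 change in neutrophils minus that in microglia), Ifit3b (3.07 ± 0.64), Herc6 (3.27 ± 0.47) and Oas3 (3.43 ± 0.40). Ifitm3 (−1.29 ± 0.25) was among the smaller ones. The calls of Ifit3b between LPS and saline were lost in both classes with single libraries left out, as given above. In choroid plexus cells 7 of 14 genes changed more than in microglia and 1 less (background 23% and 31.1%). Ifit3 and Ifi44, among these 7, had 3 UMIs and 1 UMI in saline choroid plexus cells and passed the filter through the LPS libraries. Ifi27l2a, also among them, was low in saline libraries by the values above. The count thus describes the genes that passed, and no fitted difference is given for these genes. Ifit3 changed less than in microglia in macrophages (−0.77 ± 0.21) and monocytes (−1.07 ± 0.36), and more in endothelial cells (1.03 ± 0.18). It was also called as changing more in T-cells, ependymal cells, fibroblasts and B-cells. In these small classes a gene can pass the filter through the LPS libraries, so no fitted difference is given for them. The call of Ifit3 between LPS and saline within B-cells was lost when single libraries were left out. Its adjusted p in edgeR's test was up to 0.185, without saline inhibitor replicate 2.

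With scaling factors, macrophages, monocytes and endothelial cells mostly changed less than microglia. This comparison was not repeated with library size alone. That scaling moved the median log2 change of all genes from −0.19 to −0.97 in microglia and from −0.045 to −0.434 in macrophages. The medians went from −0.016 to −0.086 in monocytes and from −0.032 to −0.236 in endothelial cells. The part of the scaling in these differences was not tested. In macrophages 26 of 37 genes had a smaller and 3 a larger log2 change (background 35.3% and 9.64%). Among the p200 genes 4 of 6 had a smaller change and Ifi209 and Ifi203 were not called, with Ifi211 at −3.24 ± 0.17, Ifi204 at −3.17 ± 0.14 and Ifi207 at −2.91 ± 0.14. In monocytes 22 of 39 genes had a smaller and 2 a larger change (background 17.2% and 19.5%), with Ifi211 at −4.23 ± 0.23. Ifi203, lower in both classes, fell less in monocytes than in microglia (1.47 ± 0.27). In endothelial cells 20 of 34 genes had a smaller and 4 a larger change (background 38.5% and 16.5%), with Rtp4 at −2.88 ± 0.16 and Ifit3 on the other side. In the smaller classes, larger and smaller changes than in microglia numbered 4 and 4 of 16 in B-cells (background 4.96% and 37%), 2 and 7 of 17 in T-cells (9.39% and 42%), 0 and 8 of 11 in NK cells (5.53% and 38.2%), and 3 and 3 of 8 in ependymal cells (21.3% and 25.1%). They numbered 2 and 0 of 11 in fibroblasts (12.4% and 26.3%) and 0 and 0 of 4 in pericytes and smooth muscle cells (17.6% and 24.3%). These folds start from different saline levels, which for Rtp4 were 116, 102, 137 and 102 CPM in endothelial cells and 22.2, 21.6, 23.1 and 20.1 CPM in microglia, and for Ifi204 116, 103, 116 and 84.8 CPM in macrophages.

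Between DMSO and inhibitors few calls were made. Among 265 pairs of gene and class, 1 was called between DMSO and inhibitors, and 24 had an unadjusted p under 0.05. DESeq2's Wald test called 0. In microglia edgeR called 0 of 41 genes, with a median log2 difference (DMSO minus inhibitors) of −0.01, a range of −0.39 to 0.30 and 2 genes with an unadjusted p under 0.05. Of all genes tested in microglia, 0.361% were higher in DMSO and 0.00488% lower. The called pair was Ifit1 in ependymal cells, which was lower with DMSO by a log2 difference of −1.75 ± 0.32 (adjusted p = 0.0108), visible in its LPS libraries at 87.5, 75, 215 and 223 CPM. The free RNA limit in these cells, given above, was also higher in the LPS inhibitor libraries, and with free RNA subtracted 1 pair of gene and class was again called between DMSO and inhibitors. Of all genes in ependymal cells, 0.102% were higher and 0.0204% lower with DMSO. An unadjusted p under 0.05 was found for 5 of 8 genes in ependymal cells (median log2 difference −0.77) and for 8 of 39 in monocytes (median −0.38), together 13 of the 24 pairs, and both medians were on the side of higher levels with inhibitors. The share of all genes at an unadjusted p under 0.05 is not given here, so these counts have no background.

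The LPS change itself did not pass a test of difference between DMSO and inhibitors for any of the 265 pairs (edgeR's interaction term, 0 called, 27 with an unadjusted p under 0.05). Of these 27, 17 were in monocytes, where the median difference of the log2 changes was 1.06. No share of all genes is given beside these counts, neither for the adjusted calls of this term nor at the unadjusted limit. Summed levels in the saline monocyte libraries were 4267 and 2945 CPM with DMSO and 8526 and 5491 CPM with inhibitors. With 2 libraries per combination, the interval of such a difference is wide, and a missed threshold does not show equal changes.

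Per cell, the genes were spread unevenly. After thinning every cell to 800 UMIs, 43.7 ± 1.8% of saline microglia and 77.9 ± 4.1% of LPS microglia (SD, n = 4 libraries each) had at least 1 UMI of the 41 genes. A UMI of an IFIT gene was found in 1.26 ± 0.20% of saline and 2.30 ± 0.68% of LPS microglia, and in 3.29% and 8.97% when all UMIs were used. A droplet filled only with free RNA at the same depth would hold an IFIT UMI in 2.31 to 3.06% of cases in saline libraries and 3.12 to 5.49% in LPS libraries. The microglial share was below these values, which are for droplets holding free RNA alone, while free RNA made up at most 1.75 to 8.71% of microglial UMIs. Endothelial cells stood above them at 16.6 ± 2.2% in saline and 25.9 ± 5.7% after LPS, and neutrophils went from 2.89 ± 2.94% to 18.9 ± 3.5%.

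The other members were concentrated in the same microglia as the IFIT UMIs. In saline libraries, thinned microglia with an IFIT UMI held 4.42 ± 0.16 UMIs of the other genes of the list, against 0.666 ± 0.045 in microglia without one, a ratio of 6.65 ± 0.41. In LPS libraries the values were 5.32 ± 0.49 and 1.82 ± 0.22, a ratio of 2.95 ± 0.33. The level in cells without an IFIT UMI was thus higher after LPS, and the contrast between both kinds of cell was smaller. By gene, the saline ratio ranged widely. It was 49.2 for Rsad2 and 31.2 for Isg15, on 61 and 213 UMIs in the IFIT-positive cells, and 3.85 for Bst2. After LPS the ratio of Isg15 was 7.84 and that of Ifitm3 was 2.02, while Rsad2 still stood at 30.4. Cells are not replicates, and these ratios carry no test.

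**Figure D4:**
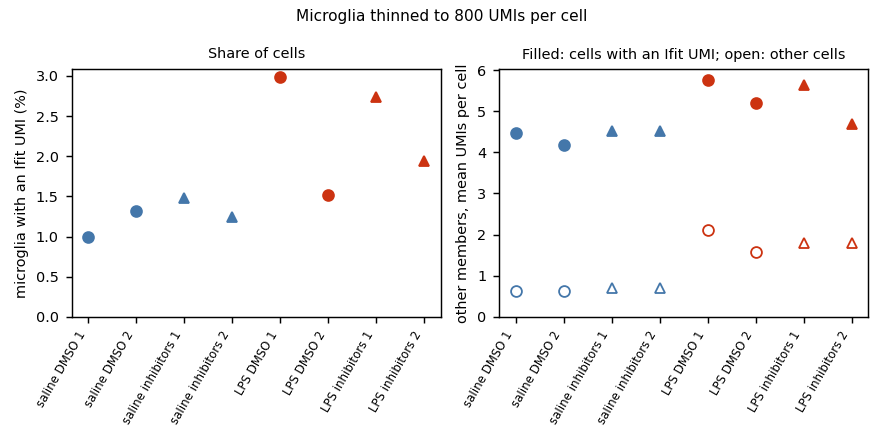
Microglia thinned to 800 UMIs, per library: the left panel gives the percentage of cells with an IFIT UMI, and the right panel the mean UMIs of the other genes of the list in cells with (filled) and without (open) an IFIT UMI. Circles are DMSO and triangles inhibitor libraries. Cells with an IFIT UMI hold 4.42 such UMIs on average in saline and 5.32 in LPS libraries, and cells without one hold 0.666 and 1.82.

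Transcripts of the ligands themselves were near absent. Of 18 type I interferon genes in the files, 7 had no UMI in any cell, and the 18 together had 38 UMIs in saline and 96 in LPS cells. Ifnb1, which encodes interferon beta, was the main one, with 1, 1, 6 and 2 UMIs in saline microglia and 38, 3, 11 and 11 UMIs in LPS microglia, against 26005572 to 77034660 microglial UMIs per library. The highest count was in a single library, LPS DMSO replicate 1. None of the 18 was frequent enough for the test.

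Receptor genes had more lower than higher calls. Over the 12 classes, 47 pairs of receptor gene and class were tested, and 4 were higher and 14 lower. Pooled over the same classes, 18.8% of all tested pairs of gene and class were higher and 20.4% lower, which applies to the pooled counts of the next groups as well, although it ranged between classes. In microglia Ifnar1 and Ifnar2 did not pass the test (0.06 ± 0.11 and 0.01 ± 0.13). Without scaling factors both were lower with no overlap, with Ifnar1 at 49.9 ± 2.64 CPM in saline and 30.7 ± 5.69 CPM in LPS libraries and Ifnar2 at 223 ± 6.94 CPM in saline and 132 ± 15.8 CPM in LPS libraries (SD, n = 4). Ifngr1 (−0.48 ± 0.13), Il10rb (−0.52 ± 0.10) and Ifnlr1 (−1.03 ± 0.31) were lower in microglia. Ifnar1 was lower in macrophages (−0.85 ± 0.16) and endothelial cells (−1.12 ± 0.17). Ifnar2 was lower in macrophages (−0.41 ± 0.15), monocytes (−0.55 ± 0.17) and endothelial cells (−0.52 ± 0.15), and higher in ependymal cells (0.83 ± 0.32) and in pericytes and smooth muscle cells (0.97 ± 0.30). Ifngr1, the interferon gamma receptor chain, was also lower in macrophages, monocytes and B-cells and higher in T-cells. Il10rb, shared by the interferon lambda and IL-10 receptors, was lower in macrophages, NK cells and endothelial cells (−2.63 ± 0.21) and higher in choroid plexus cells.

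Among the kinases and STATs, 13 of 37 tested pairs were higher and 5 lower (pooled background 18.8% and 20.4%). Stat3, which many cytokines activate, was higher in 10 classes, from 1.10 ± 0.26 in T-cells to 3.20 ± 0.25 in ependymal cells. Tyk2 was lower in macrophages (−1.09 ± 0.31), monocytes (−0.98 ± 0.25) and endothelial cells (−1.35 ± 0.40). Jak1 was lower in macrophages and NK cells and higher in endothelial cells (0.61 ± 0.18), and Jak2 was higher in macrophages and fibroblasts.

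The interferon regulatory factors, transcription factors of the interferon response, were higher in 19 of 61 tested pairs and lower in 6 (pooled background 18.8% and 20.4%). Irf7, which drives the amplification of interferon and is itself an interferon target, accounted for 10 of the 19. It rose from 7.14 ± 1.07 to 36 ± 7.92 CPM in microglia (3.08 ± 0.16), by 3.30 ± 0.17 in macrophages, 3.40 ± 0.51 in neutrophils, 2.78 ± 0.18 in endothelial cells and 5.72 ± 0.42 in choroid plexus cells. It was also called higher in monocytes, B-cells, T-cells, ependymal cells and fibroblasts. Irf9, a subunit of ISGF3, was higher in microglia (0.68 ± 0.10), neutrophils and choroid plexus cells. Irf8 was lower in microglia (−0.34 ± 0.12), monocytes (−1.26 ± 0.21), neutrophils and choroid plexus cells, and higher in NK cells and endothelial cells (2.14 ± 0.19). Irf1 was higher in endothelial cells and lower in macrophages. In microglia Irf2 (0.26 ± 0.09) and Irf3 (0.55 ± 0.10) were higher and Irf5 (−0.32 ± 0.11) was lower, and Irf2 was also higher in macrophages. The mean CPM of Irf2, Irf3 and Irf9 in microglia was lower after LPS (for Irf9 59 ± 6.08 in saline and 55.4 ± 7.06 in LPS libraries), so these rises depend on the scaling.

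Upstream sensors and adaptors, which detect microbial products and lead to interferon production, were higher in 34 of 79 tested pairs and lower in 14 (pooled background 18.8% and 20.4%). Cd14, the co-receptor for LPS, was higher in 10 classes, by 2.42 ± 0.19 in microglia and 4.05 ± 0.20 in endothelial cells. The kinase Ikbke was higher in 5 classes, by 6.49 ± 0.16 in microglia and 6.68 ± 0.25 in macrophages. Tlr4, the receptor for LPS, was lower in microglia (−1.47 ± 0.13) and macrophages (−1.51 ± 0.19) and higher in endothelial cells (1.18 ± 0.26), and Sting1, the adaptor of cytosolic DNA sensing, was lower in microglia (−1.81 ± 0.13), macrophages and monocytes and higher in endothelial cells (1.20 ± 0.24). Markers of plasmacytoid dendritic cells, known producers of type I interferon, were higher in 2 of 27 tested pairs and lower in 13, of which 7 were of Siglech, a gene that microglia also express. Of the ligands other than type I, 2 pairs were tested, and 1 was lower (Ifng in microglia, −2.25 ± 0.49).

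Feedback inhibitors of cytokine signalling rose in 22 of 46 tested pairs and fell in 3 (pooled background 18.8% and 20.4%). Socs3, an inhibitor of Stat3 signalling in particular, rose in 10 classes, by 4.54 ± 0.20 in microglia, 4.85 ± 0.26 in macrophages and 4.29 ± 0.26 in endothelial cells. Socs1, which inhibits Janus kinases, rose in microglia (1.74 ± 0.19), monocytes, neutrophils (3.01 ± 0.51) and endothelial cells (3.66 ± 0.35). Of 16 genes known for their response to interferon gamma, 88 of 128 pairs of gene and class were higher and 6 lower (pooled background 18.8% and 20.4%). By class, 14 of 15 tested were higher in endothelial cells (background 20.6%), 10 of 10 in choroid plexus cells (11.2%), 9 of 16 in microglia (29.9%) and 5 of 16 in macrophages (24.6%), and these counts were not tested against each other. In choroid plexus cells the 16 genes together had 182 UMIs in saline and 3607 in LPS libraries. Genes of this list too can pass the filter through the group in which they are high, so these counts describe those that passed.

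**Figure D5:**
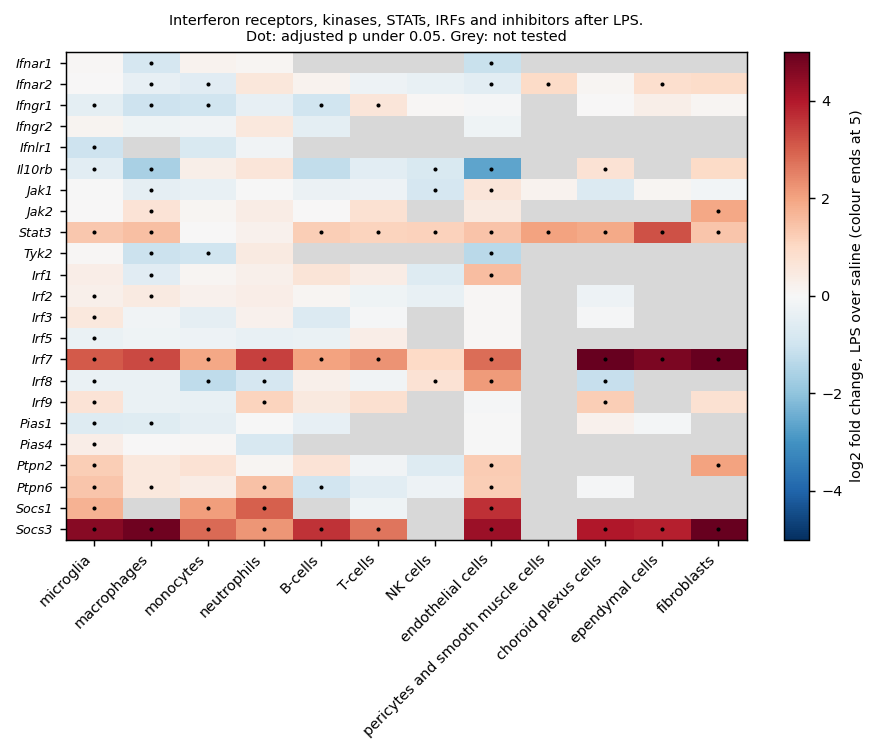
Log2 fold change, LPS against saline, of receptor, kinase, STAT, interferon regulatory factor and feedback genes in each cell class, with dots on pairs called at an adjusted p under 0.05 and grey where a gene was not tested. The rows of Irf7, Socs3 and Stat3 are each called higher in 10 classes.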

How the data were processed

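The deposited files hold raw UMI counts per gene and barcode, which the authors made with PIPseeker and its STAR alignment to GRCm39, and the labels' processing notes name Seurat 4. Barcodes with 800 to 44999 UMIs, 250 to 6499 genes and under 5% mitochondrial counts were kept. No doublet caller was run. Cells were assigned to 17 classes by fixed marker lists, requiring at least 3 detected markers, and the limits of this gate were set after the marker levels had been seen. Counts were summed per library and class (at least 10 cells and 3 libraries per treatment), filtered with filterByExpr, scaled by TMM and tested with edgeR 4.0.16 (quasi-likelihood, in R 4.3.3), with DMSO or inhibitors as a further term and Benjamini-Hochberg adjustment over all genes of a class. SE is the log2 fold change divided by the square root of F. The interaction and the comparison of classes came from fits of the same kind. CPM is per summed total of the class. DESeq2 1.42.0, other scalings, filters, gates, thinning and left-out libraries were alternatives, and the fits were tested on simulated data. The simulation changed a small part of the genes, as many up as down. It therefore does not cover the wide change and the dependence on scaling seen in microglia.

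Replicate numbers mark the capture batch by the labels, so they pair the samples. In microglia the differences between replicates 1 and 2 correlated across the combinations with r = 0.196 to 0.736 over 8694 genes. Each library is a mouse, and p-values measure the spread between these mice. Intervals and limits cover counting error only.

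The genes and lists were chosen with earlier results of these data known. All 41 genes could be named. Values per library are given for part of the genes in microglia, which are not in every role the most abundant ones, and for called genes with large changes in other classes. Every gene called against the main direction of a class is named. A few further genes were added after their values were seen. A gene of the signalling lists was left out of their counts and is not reported here. Promoters are from RefSeq (GRCm38.p6), whose coordinates are not those of the build the counts were made on. Library size as the only scaling and the subtraction of free RNA were added after the data had been seen.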

Additional observations from a re-analysis of the deposited data

Results flagged for a closer look

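In 108 groups of 4 libraries, the highest or lowest library was tested against the gap that chance leaves in about 1 group in 20 (Dixon's test), and 5 stood apart. These were the summed level in LPS fibroblasts, where inhibitor replicate 2 was the highest at 10131 CPM. In microglia they were Ifi204 in saline inhibitor replicate 1 (15.6 CPM) and in LPS DMSO replicate 1 (145 CPM), Ifi211 in saline DMSO replicate 2 (3.0 CPM, the lowest) and Phf11d in LPS DMSO replicate 1 (41.5 CPM). This number is what chance alone gives in so many groups.

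By the test of the difference itself, run with scaling factors only, the LPS change differed from that in microglia for 29 of 37 genes in macrophages and 24 of 39 in monocytes. It differed for 17 of 33 in neutrophils, 24 of 34 in endothelial cells, 9 of 17 in T-cells, 8 of 16 in B-cells and 8 of 11 in NK cells. In choroid plexus cells it was 8 of 14, in ependymal cells 6 of 8 and in fibroblasts 2 of 11. Of all genes in T-cells, 9.39% had a larger and 42% a smaller log2 change than in microglia. These shares were 23% and 31.1% in choroid plexus cells and 12.4% and 26.3% in fibroblasts. The counts of these classes thus lie near or below the share of all genes, and the shares of the other classes are given above. In pericytes and smooth muscle cells, where 4 genes were tested in both classes, edgeR's quasi-likelihood test called 0.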

How the results depend on the processing

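Of the 178 called pairs of gene and class, 112 had a value under all 19 alternatives, and 71 of these kept their direction and their call in each. The other 66 had no value under at least 1 (thinning gave one for 114 pairs, the stricter gate for 159), and 23 of them kept both in those that were run. The remaining 84 lost the call or the direction at least once. With a replicate block all 178 kept both, and microglia again had 32 genes called higher. The 2 reversals both came with library size as the only scaling in microglia, at −0.316 for Isg20 and −0.413 for Slfn8. That scaling gave 28 lower calls over all classes (17 with TMM) and 13 higher calls in endothelial cells (21). Requiring a log2 fold change over 2 left 15 genes higher in microglia, 15 in neutrophils, 4 in B-cells, 4 in ependymal cells, 3 in endothelial cells, 2 in macrophages, 2 in T-cells, 1 in monocytes and 1 in NK cells, and 2 lower calls in all. Thinning to 800 UMIs, which leaves fewer counts, gave 15 higher calls in neutrophils, 10 in endothelial cells, 5 in monocytes, 3 in B-cells, 3 in choroid plexus cells, 2 in T-cells, 2 in ependymal cells, 1 in fibroblasts and 0 in NK cells, 10 lower calls and 0 calls between DMSO and inhibitors. DMSO libraries alone gave 8 higher calls in endothelial cells, 5 in B-cells, 5 in T-cells, 4 in ependymal cells, 2 in fibroblasts and 0 in NK cells, with 3 lower calls. Inhibitor libraries alone gave 15 in neutrophils, 6 in monocytes and 1 in NK cells. DESeq2 gave 6 in pericytes and smooth muscle cells, 1 in NK cells and 0 between DMSO and inhibitors. No filter on low counts gave 19 in choroid plexus cells, 14 in ependymal cells, 9 in pericytes and smooth muscle cells and 2 between DMSO and inhibitors. The stricter gate could not be fitted in fibroblasts. The share of all genes called under each of these settings, or with a library left out, is not given here, so such counts have no background.

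Leaving out a library in turn, 38 of the 178 calls were lost at least once where they could be refitted. The lower calls ranged from 10 (without saline inhibitor replicate 1, and without LPS inhibitor replicate 2) to 18. The calls between DMSO and inhibitors ranged from 0 to 2, the higher calls in NK cells from 1 to 3 and in pericytes and smooth muscle cells from 2 to 5. The genes that differed from microglia ranged from 5 to 8 in B-cells (5 without saline inhibitor replicate 2), from 4 to 8 in NK cells (4 without the same library), from 5 to 8 in choroid plexus cells (5 without saline inhibitor replicate 1), from 1 to 3 in fibroblasts and from 0 to 1 in pericytes and smooth muscle cells. In microglia 29 to 33 genes were called higher. The share of microglia with any UMI of the genes was 78.1% in saline and 98.8% in LPS libraries without thinning, and 63.1% and 91.9% at 1500 UMIs. For an IFIT UMI it was 3.29% and 8.97%, and 2.03% and 3.70%. Depth limits the rarer classes, where most of the 41 genes were not tested.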
